A study of Homo sapiens with 4 samples.

Results

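DLX1, DLX2, MSX1, MSX2, GATA2, GATA3, TBX3, RUNX2 and ATOH8 are transcription factor genes that bone morphogenetic proteins (BMPs) control in the embryo. These 9 genes, of 19775 genes with a probe set of their own on the arrays, were chosen from what is known of BMP targets in development, by a rule that uses no measured value, though with earlier results of these data known. They were followed in SKOV3, an established cell line from a human ovarian carcinoma, on 2 arrays of control cells and 2 arrays of cells given rhSTIP1. By its name rhSTIP1 is taken to be recombinant human STIP1, a cochaperone that cells also secrete, and neither its dose nor the time of exposure is given in the sources used here. All 4 samples are 1 cell line. No label ties the arrays of a group to different cultures, and the spread behind each p-value is therefore that of these samples and may be technical. A pathway spelled SAMD1/5 stands in the series title, read here as SMAD1/5, and the comparison of treated with control cells bears on how far targets of that pathway moved.

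BMPs bind paired receptor kinases, which phosphorylate SMAD1 and SMAD5. These join SMAD4, enter the nucleus and bind short GC-rich and GTCT elements beside target genes. The ID genes and the inhibitory SMADs respond in many cell types. The homeobox, GATA, T-box, RUNX and ATOH8 genes studied here respond in particular embryonic tissues, such as neural crest, limb, tooth and bone, where other factors act with the SMADs.

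Of the 9 genes 6 could be tested, and limma called 0 of them, as it called 0% of all 12296 genes tested. DLX2 was the only one whose treated arrays both lay above both controls with group means at least 1.5-fold apart. Its signal was dim, and it could be tested only through its rhSTIP1 arrays. On their brightest probe sets GATA2 and MSX1 were slightly lower in both treated arrays, by less than 1.5-fold, and each had another probe set of opposite sign. Of all genes tested 28.9% had groups that did not overlap, and 5.69% were also at least 1.5-fold apart. MSX2, RUNX2 and ATOH8 had overlapping groups on their brightest probe sets, though another ATOH8 probe set was lower in both treated arrays. That ATOH8 probe set was bright enough for testing only through its control arrays. The GATA2 probe set of opposite sign was so only through its rhSTIP1 arrays. DLX1, GATA3 and TBX3 lay under the signal at which genes were tested.

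The bases before the start sites are printed for 3 genes, picked in part by their fold changes. DLX2 had the largest difference among the 9 genes, and DLX1 is its neighbour and paralog. ID3 is the BMP target with the largest fold change among the other targets described below. Any link between these bases and the array values was not tested. The 250 bases before each start, from RefSeq on GRCh38.p14, are written 5′ to 3′ along the gene's own strand, with every GTCT, the core of the SMAD4 element, in capitals on either strand (AGAC is its reverse complement). The arrays carry no genome build of their own.
DLX1 (chr2:172085257-172085506, plus strand): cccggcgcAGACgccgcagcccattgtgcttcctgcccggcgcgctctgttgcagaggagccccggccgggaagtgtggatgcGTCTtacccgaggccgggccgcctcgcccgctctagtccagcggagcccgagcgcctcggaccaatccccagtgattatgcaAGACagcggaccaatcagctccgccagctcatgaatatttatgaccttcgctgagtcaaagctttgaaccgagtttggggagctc
DLX2 (chr2:172102901-172103150, minus strand): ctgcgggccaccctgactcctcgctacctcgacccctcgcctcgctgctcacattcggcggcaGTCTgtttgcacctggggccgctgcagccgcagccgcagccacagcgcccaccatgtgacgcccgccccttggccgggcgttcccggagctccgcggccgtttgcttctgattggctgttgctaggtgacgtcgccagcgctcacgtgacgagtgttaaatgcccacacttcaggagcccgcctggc
ID3 (chr1:23559502-23559751, minus strand): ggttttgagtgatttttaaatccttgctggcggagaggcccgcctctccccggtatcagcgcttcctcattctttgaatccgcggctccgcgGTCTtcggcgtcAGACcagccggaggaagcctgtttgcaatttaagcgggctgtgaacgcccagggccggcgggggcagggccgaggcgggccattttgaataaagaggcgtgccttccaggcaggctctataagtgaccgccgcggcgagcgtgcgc
The DLX1 window held 3 matches to GTCT, the DLX2 window 1 and the ID3 window 2. None of the 3 windows held GGCGCC, the palindromic GC-rich element of SMAD1 and SMAD5, which does not overlap GTCT. Windows were found for 8 of the 9 genes (all but TBX3), 15 in all because GATA2, GATA3 and RUNX2 have several starts. GTCT was found in 9 of these 15 windows, from 5 genes, and GGCGCC in 5 of the 15, all of GATA2, GATA3 and RUNX2, the genes with several windows. Of all 35116 windows of that length, 77.5% held GTCT and 16.4% held GGCGCC on either strand, so a GTCT match is what most promoters have. A match is a description of letters, not a binding site.

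The arrays carried 31 probe sets annotated to the 9 genes, each to that gene alone. A probe set is a group of short probes that reads out 1 transcript region, and probe sets of 1 gene are not independent replicates. Their MAS5 signals are linear and each array had been scaled to a common target. Because probes differ in brightness, signals can be compared between arrays for 1 probe set but not between genes. Of the 31, 11 had a mean signal of at least 69.4, the median of all probe sets other than controls, and 20 lay under it. At this level 6 of the 9 genes were tested, each by its brightest probe set. The table holds no detection calls, so dim signals could not be told from background, and fewer cells with a transcript cannot be told from less transcript per cell.

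**Figure D1:**
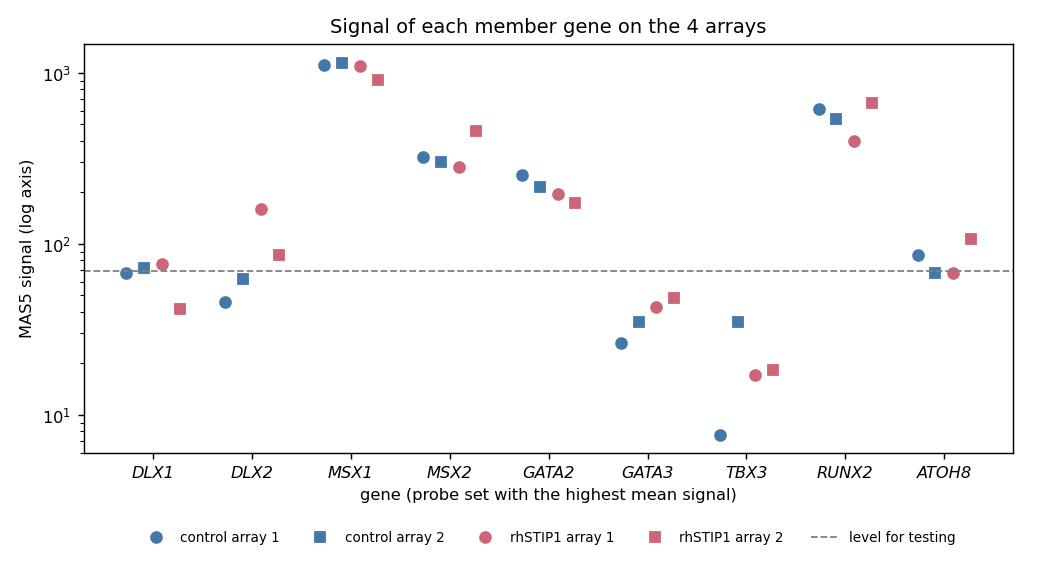
MAS5 signal (log axis) of the brightest probe set of each of the 9 genes on the 4 arrays, with control arrays in blue, rhSTIP1 arrays in red, array 1 as circles and array 2 as squares. The dashed line is the level of 69.4 for testing, and only for DLX2 do both control arrays lie under it with both rhSTIP1 arrays above it. Heights are not comparable between genes.

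Facts of the whole series bear on these values as follows. Median signals ran from 66.0 to 79.2 over the 4 arrays. The 3′ to 5′ ratio of ACTB, which rises with RNA degradation, was between 2.45 and 2.74 on 3 arrays and 8.79 on rhSTIP1 array 2, while that of GAPDH stayed between 0.987 and 1.32. Of 13 epithelial and ovarian carcinoma markers 12 were above the level for testing (all but MUC16), with a summed signal of 54383 to 54770.3 in controls and 57750.2 to 61811 with rhSTIP1. Of 8 mesenchymal markers 5 reached it (summed signal 24477 to 27281 in controls and 21949 to 26101 with rhSTIP1). Of 4 mesothelial markers 3 did (587 to 625 in controls and 501 to 627 with rhSTIP1). None of the 3 leukocyte markers measured reached the level (summed signal 77.1 to 86.6 in controls and 66.5 to 191 with rhSTIP1). Of 4 endothelial markers only PECAM1 reached it (199 to 211 and 206 to 354), and of 3 osteoblast markers only IBSP did (374 to 388 and 317 to 444). The part of these levels and of the ACTB ratio in the results was not tested.

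DLX1 and DLX2 encode homeodomain proteins of forebrain, branchial arch and limb development, and lie next to each other. DLX2 (probe set 207147_at) had signals of 45.7 and 62.0 on the control arrays and 161 and 85.7 on the rhSTIP1 arrays. Both treated arrays were above both controls, and the treated arrays differed from each other by somewhat less than the groups did. The log2 fold change, on log2(signal + 16), was 0.95 ± 0.43 (SE, n = 2 arrays per group), or 1.93-fold, with a 95% interval from −0.06 to 1.96 and an adjusted p of 0.999 (limma over 12296 genes, unadjusted p = 0.0622). DLX2 passed the level for testing only through its rhSTIP1 arrays, so its presence among the tested genes is tied to its difference. It was 1 of 6 tested genes (16.7%) separated by at least 1.5-fold, meaning no overlap and a group difference of that size, against 5.69% of all genes tested (1.9% higher and 3.79% lower). Without rhSTIP1 array 1 its log2 fold change was 0.55 and it no longer reached 1.5-fold, whereas without rhSTIP1 array 2, the array with the high ACTB ratio, it was 1.35.

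The second DLX2 probe set, 215685_s_at, was dimmer, at 3.43 and 17.98 in controls and 30.002 and 22.4 with rhSTIP1. It went the same way, with a log2 fold change of 0.71, and was not tested with the filter because it lay under the level. DLX1 showed no such pattern. Its brighter probe set 242138_at read 67.8 and 72.0 in controls and 76.3 and 41.6 with rhSTIP1, so rhSTIP1 array 1 was the highest and rhSTIP1 array 2 the lowest. The other, 1560100_at, read 9.78 and 18.2 in controls and 33.2 and 8.71 with rhSTIP1, and there too the treated arrays were the extremes.

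MSX1 and MSX2 encode homeodomain repressors of craniofacial, tooth and limb development, and MSX2 is a classic target of BMP4. MSX1 (205932_s_at) had signals of 1109.8 and 1146 in controls and 1099 and 908 with rhSTIP1. Both treated arrays were lower, rhSTIP1 array 1 by a small margin. The log2 fold change was −0.17 ± 0.24 (95% interval −0.73 to 0.38, limma adjusted p = 0.999). In fold terms the interval ran from 0.604 to 1.30. The second MSX1 probe set, 228473_at, overlapped and had the opposite sign, with 90.4 and 128 in controls, 77.8 and 172 with rhSTIP1 and a log2 fold change of 0.10 ± 0.43.

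MSX2 (210319_x_at) had signals of 322 and 301 in controls and 279 and 453 with rhSTIP1. The treated arrays lay on either side of the controls, array 1 below and array 2 above. The log2 fold change was 0.18 ± 0.31 (95% interval −0.53 to 0.90), and it was −0.15 without rhSTIP1 array 2. The suffix _x_at marks a probe set whose probes may also match other transcripts. The probe set 205555_s_at read 198 and 186 in controls and 233 and 168 with rhSTIP1, with the order of the treated arrays turned around, and its log2 fold change was 0.04 ± 0.31. The dim 205556_at read 16.2 and 2.98 in controls and 24.9 and 13.2 with rhSTIP1, also with overlap.

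GATA2 and GATA3 encode zinc finger factors that BMP signals induce in ventral ectoderm and blood precursors. GATA2 (209710_at) had signals of 253 and 216 in controls and 195 and 172 with rhSTIP1. Both treated arrays were below both controls. The log2 fold change was −0.33 ± 0.29 (95% interval −1.001 to 0.35, limma adjusted p = 0.999), or 1.25-fold lower, under the 1.5-fold level. With 1 array left out it ran from −0.43 to −0.22. The probe set 210358_x_at went the same way, at 148 and 106 in controls and 72.6 and 101 with rhSTIP1, with a log2 fold change of −0.48 ± 0.37. The third, 207954_at, went the other way and overlapped, at 49.6 and 87.8 in controls and 82.2 and 102 with rhSTIP1, with 0.39 ± 0.42. Its control mean of 68.7 lay under the level for testing, so it reached that level only through its rhSTIP1 arrays.

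GATA3 was under the level for testing on all 3 of its probe sets. The brightest, 209604_s_at, read 26.2 and 35.1 in controls and 42.7 and 48.3 with rhSTIP1, so the groups did not overlap, and its log2 fold change of 0.40 was under 1.5-fold. The other 2 GATA3 probe sets had signals between 0.382 and 8.75 and overlapped. TBX3, a T-box repressor of limb and mammary development, was under the level on all 7 of its probe sets. Its brightest, 229576_s_at, read 7.65 and 35.0 in controls, which enclosed 17.1 and 18.3 with rhSTIP1. For 3 other TBX3 probe sets (243234_at, 228344_s_at and 222917_s_at) both treated arrays were below both controls, at signals of at most 22.2.

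RUNX2, the master regulator of osteoblast formation, acts with its partner CBFB. Its 1 probe set above the level, 232231_at, had signals of 610.25 and 536 in controls and 399 and 663 with rhSTIP1. As for MSX2, the treated arrays lay on either side of the controls, array 1 the lowest of the 4 and array 2 the highest. The log2 fold change was −0.15 ± 0.30 (95% interval −0.85 to 0.55), and 0.21 without rhSTIP1 array 1. The other 5 RUNX2 probe sets were under the level, with signals between 2.68 and 50.6, and all overlapped. ATOH8, a basic helix-loop-helix factor that BMP signals induce in endothelium and liver, had signals of 86.3 and 67.1 in controls and 67.7 and 107 with rhSTIP1 on 1558705_at. rhSTIP1 array 2 was again the highest, and the log2 fold change was 0.14 ± 0.41. On 228890_at, which reads the same gene, both treated arrays were lower, at 54.1 and 57.0 against 67.4 and 108 in controls, with −0.51 ± 0.42. That probe set reached the level only through its controls, as its mean with rhSTIP1 was 55.5, so its difference is tied to the filter.

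**Figure D2:**
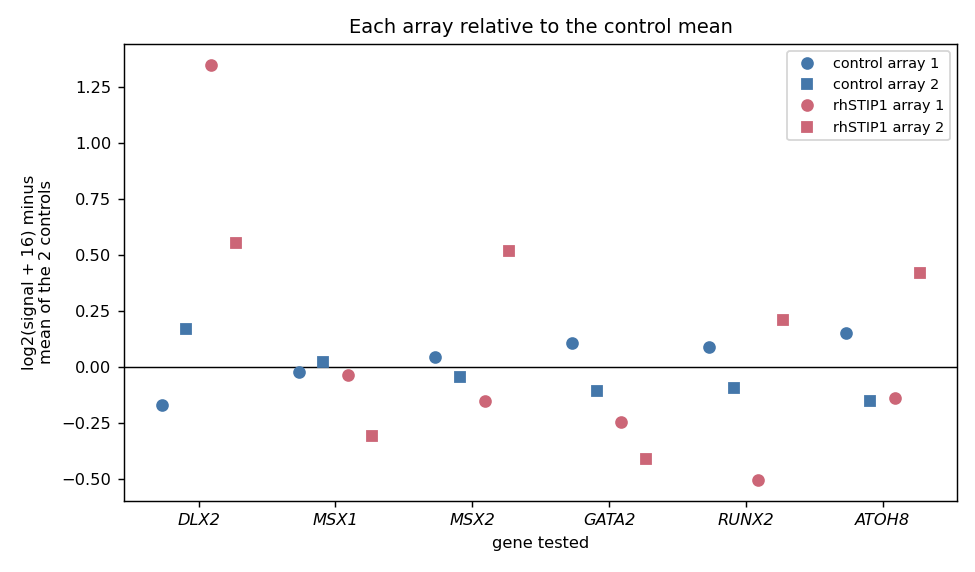
Difference of each array from the mean of both controls, in log2(signal + 16), for the 6 genes tested, with colours for the groups and shapes for the array number. rhSTIP1 array 1 lies highest for DLX2 (1.35) and lowest for RUNX2 (−0.50), and rhSTIP1 array 2 is the highest array for MSX2 (0.52), RUNX2 (0.21) and ATOH8 (0.42).

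The direction was uneven across probe sets. Of the 31, 16 had a log2 fold change above 0 and 15 below. The groups did not overlap for 10 of them (32.3%), 3 higher and 7 lower, against 29.9% of all probe sets other than controls, a share near the background. Among the 11 above the level the groups did not overlap for 5, against 28.2% of all probe sets above it. The DLX2 probe set among these reached the level only through its rhSTIP1 arrays. ATOH8 228890_at reached it only through its controls, with mean signals of 87.7 in controls and 55.5 with rhSTIP1. At 1.5-fold 2 were separated (6.45%), both of DLX2, against 12% of all probe sets. Of the 4 genes with more than 1 probe set above the level, MSX1, GATA2 and ATOH8 had probe sets of opposite sign and only MSX2 did not. For GATA2 this rests on 207954_at, which reached the level only through its rhSTIP1 arrays (mean signal 68.7 in controls and 92.3 with rhSTIP1). Its sign and that of ATOH8 228890_at are thus tied to the filter. The limma fit over all 54613 probe sets gave 0 of the 31 an adjusted p under 0.05 and 0 an unadjusted p under 0.05.

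**Figure D3:**
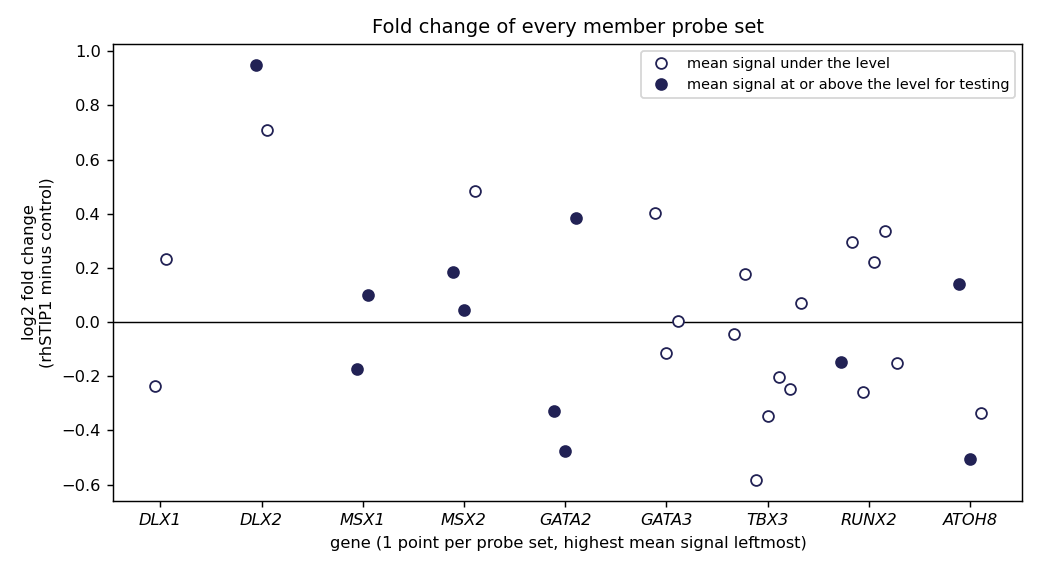
Log2 fold change (rhSTIP1 minus control, on log2(signal + 16)) of each of the 31 probe sets, by gene, filled where the mean signal reached the level for testing (11) and open where it did not (20). Points scatter on both sides of 0 for 7 of the 9 genes, and only the DLX2 pair lies above 0.6.

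At the gene level 3 of the 6 tested genes were above 0 and 3 below, with a median log2 fold change of 0.00 against 0.02 over all genes tested. The groups did not overlap for 3 of the 6 (50%), DLX2 higher and GATA2 and MSX1 lower, against 28.9% of all genes (14% higher and 14.9% lower). DLX2 was among the 6 only through its rhSTIP1 arrays, so its part in this share is tied to the filter. By limma 0 of the 6 had an adjusted p under 0.05, as had 0% of all 12296 genes. At an unadjusted p under 0.05 the 6 again gave 0, against 3.68% (452 genes). With 2 arrays against 2, an exact permutation test of 1 gene cannot give a p below 0.333. The upper ends of the 95% intervals were 1.27-fold for GATA2, 1.30-fold for MSX1, 1.47-fold for RUNX2, 1.86-fold for MSX2, 2.12-fold for ATOH8 and 3.90-fold for DLX2, each as rhSTIP1 over control. The intervals of all 6 genes include no change. Each is that of the brightest probe set alone, so it does not bound a rise of the gene. Of the other probe sets above the level, GATA2 207954_at had a log2 fold change of 0.39 ± 0.42 and MSX1 228473_at 0.10 ± 0.43. MSX2 205555_s_at had 0.04 ± 0.31, GATA2 210358_x_at −0.48 ± 0.37 and ATOH8 228890_at −0.51 ± 0.42. Of these, GATA2 207954_at reached the level only through its rhSTIP1 arrays and ATOH8 228890_at only through its controls.

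Other genes of the pathway give the comparison for these values. For the ID genes, feedback genes and other BMP targets, 12 of 15 listed symbols were tested, 9 were above 0 and 3 below, 7 were separated by at least 1.5-fold, all higher, and the median log2 fold change was 1.39. Among them 7 had an unadjusted p under 0.05 and 0 an adjusted p under 0.05 by limma. SMAD6 (log2 fold change 0.41 ± 0.30) and SMAD9 (0.26 ± 0.25) were above 0. Below 0 were BAMBI (−0.24 ± 0.33), HEY1 (−0.18 ± 0.32) and HEY2 (−0.46 ± 0.36). The 95% interval of each of these included no change. Over all genes tested 1.9% were separated higher, the median was 0.02 and 3.68% had an unadjusted p under 0.05. The list was chosen with earlier results of these data known, so its counts are a description and not a test. ID3, an inhibitor of basic helix-loop-helix factors, had a 95% interval from 3.27 to 5.83 on the log2 scale, with 500 and 189 in controls and 12430.5 and 4643 with rhSTIP1. That of ID4 ran from 0.87 to 1.85, and that of HES1, a repressor that Notch signals also drive, from 1.89 to 3.01. On the brightest probe sets, the lower ends for ID3 and HES1 lay above the upper ends for MSX1, MSX2, GATA2, RUNX2 and ATOH8. Those upper ends reached at most 1.087 (ATOH8), whereas the interval of DLX2 overlapped those of HES1 and ID4. The interval of ID4 also overlapped those of MSX2 and ATOH8. Among the other targets, the lower end for ID2 (1.094) lay just above these upper ends. The lower ends for ID1 (0.85), SMAD7 (0.86) and SNAI2 (0.52) did not clear them all. The difference between genes was not tested.

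**Figure D4:**
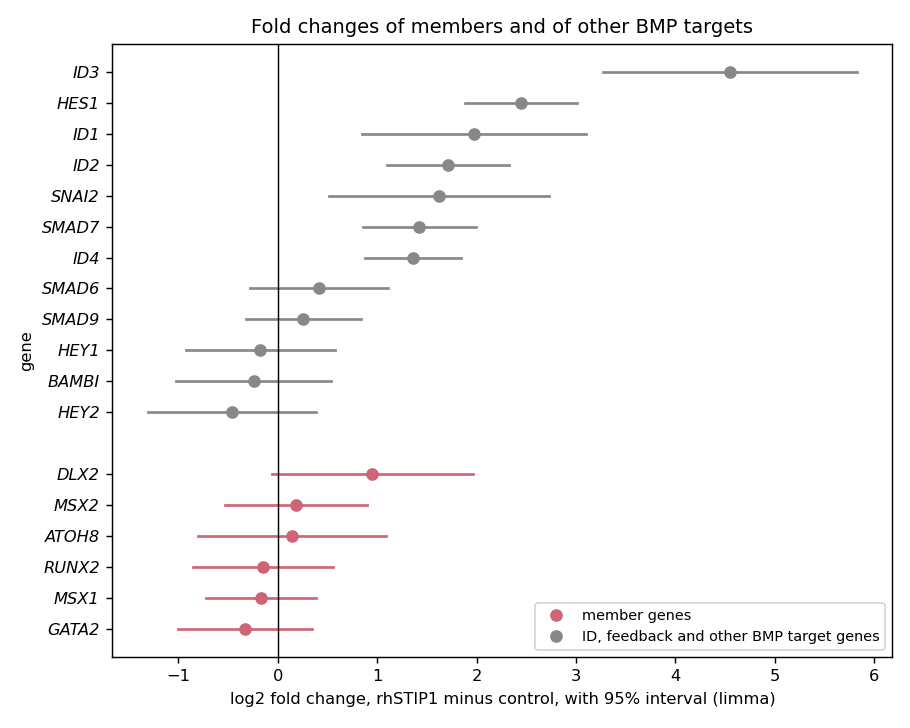
Log2 fold change with 95% interval (limma, rhSTIP1 minus control, 2 arrays per group) for the 6 tested genes in red and the 12 tested ID, feedback and other BMP target genes in grey. All 6 red intervals cross 0, and 7 of the 12 grey intervals lie wholly above it. Both sets of genes were chosen with earlier results of these data known.

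The receptors and SMADs that lead to these targets were measured as transcripts only, which shows neither protein amount nor activity. Of 10 listed, 8 were tested, 4 above 0 and 4 below, with a median of 0.03, and the groups overlapped for every one. SMAD4, the shared partner of the receptor-regulated SMADs, had −0.36 ± 0.27, the receptor ACVR1 0.19 ± 0.30 and SMAD1 −0.14 ± 0.23.

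Among family relatives of the 9 genes, 6 of 18 listed symbols were tested, and 0 had an unadjusted p under 0.05 by limma. TBX2, the closest relative of TBX3, had signals of 104 and 102 in controls and 84.6 and 71.4 with rhSTIP1, and a log2 fold change of −0.34 ± 0.36. GATA6, of endoderm and heart, had 0.23 ± 0.32, and GATA5 0.31 ± 0.44. RUNX1 was not measured alone, since its probe sets are annotated to several genes. Among other developmental factors under BMP control only 3 of 15 listed symbols were tested. TFAP2A, of neural crest and surface ectoderm, had signals of 3900.1 and 3256 in controls and 2551 and 2467 with rhSTIP1. Both treated arrays were lower, and the log2 fold change was −0.50 ± 0.22 (limma, unadjusted p = 0.0551, adjusted p = 0.999). HAND1 (−0.12 ± 0.39) and SOX9 (0.09 ± 0.50) overlapped.

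Partner proteins of the 9 factors were mostly above the level, with 11 of 15 listed tested, 7 above 0 and 4 below, a median of 0.03 and 0 separated by 1.5-fold. CBFB, the subunit that stabilises RUNX proteins on DNA, had signals of 2580.3 and 3150 in controls and 2990 and 3970.2 with rhSTIP1. Its log2 fold change was 0.27 ± 0.25. The LIM-only protein LMO4 was lower in both treated arrays, at 1802 and 1329 against 2479 and 1819, with −0.45 ± 0.27. The corepressor TLE4 had 0.15 ± 0.27.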

How the data were processed

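Signals of 4 arrays (2 control, 2 rhSTIP1, grouped by title) were used. The submitters' processing notes name MAS5 and Affymetrix Expression Console 1.1. The intensity values that the authors deposited are linear, 1 per probe set and array, and were used without further scaling. Arrays give no read depth, and their number limits the precision. Of 54675 probe sets, 62 controls were left out. Of the rest, 41091 had exactly 1 symbol in the platform annotation, 1801 several and 11721 none; 41037 matched a current gene identifier. A gene was its brightest probe set with 1 symbol, tested where the mean over the 4 arrays reached 69.4, which kept 12296 genes. This filter can favour genes high in 1 group.

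Groups were compared with lmFit and eBayes of limma 3.58.1 (R 4.3.3) on log2(signal + 16), a scale that understates changes of dim genes. The prior spread followed the mean intensity, tests were two-sided, and p-values were adjusted by Benjamini-Hochberg over all genes. A second fit covered all probe sets other than controls. The steps were tested on simulated data. At an adjusted p under 0.05, limma there called 2 of 67 genes with a true 2-fold change (2.99%). It called 50 of 67 at 4-fold and 66 of 66 at 16-fold. A lack of calls therefore says little about changes near 2-fold. The 9 genes and the gene lists were chosen with earlier results of these data known. Named genes were the 9 genes with all their probe sets, up to 3 tested genes of each list with the smallest unadjusted p, and STIP1, ACTB and GAPDH as checks; other genes were chosen after their values were seen. The log2 fold change of STIP1 was −0.17 ± 0.34, ACTB 0.04 ± 0.21 and GAPDH 0.06 ± 0.14. Alternatives covered pseudocount, filter, scaling, probe set choice, a block for the replicate number, the eBayes trend and leaving out each array, where the lone array of a group is assumed to vary like the other group's.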

Additional observations from a re-analysis of the deposited data

How the results depend on the processing

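No alternative gave any of the 6 tested genes an adjusted p under 0.05 by limma. DLX1, GATA3 and TBX3 entered only the fit without a filter, where limma gave each an adjusted p of 0.999. For DLX2 the adjusted p ran from 0.505 to 1.00 and the unadjusted p from 0.0270 to 0.375, under 0.05 in 6 of 12 alternatives, and its log2 fold change from 0.64 to 1.13 with all arrays and from 0.55 to 1.35 with 1 left out. Over the 6 genes and their other probe sets above the level, 116 of 125 alternative values kept their sign and 9 turned. A change of filter, the replicate block and the eBayes trend leave a fold change as it is. Values under these alternatives therefore kept their sign by construction, and the count is no measure of robustness. With the mean of all probe sets RUNX2 was at 0.0498 and ATOH8 at −0.23. With 1 array left out ATOH8 ran from −0.14 to 0.42, RUNX2 from −0.50 to 0.21, MSX2 from −0.15 to 0.52, the MSX1 probe set 228473_at from −0.40 to 0.60 and the MSX2 probe set 205555_s_at from −0.18 to 0.26. The median over the tested genes then lay between −0.14, when rhSTIP1 array 2 was left out, and 0.31, when rhSTIP1 array 1 was, the count separated by 1.5-fold from 0 to 1 and the genes called among all genes from 0 to 6. A filter at the 70th percentile tested only 3 of the 9 genes (MSX1, MSX2 and RUNX2), with 0 separated and a median of −0.15, and called 1 gene of all, CHAC1. With the replicate number as a block limma called 247 genes, 0 of the 6 tested genes among them, and DLX2 had an adjusted p of 0.505. The array 2 minus array 1 differences of both groups correlated at 0.36 over 12296 genes, which are not independent, and 2 shared numbers without a label do not show that the samples are pairs. The cause of the other changes was not tested.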

Other observations

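Known targets of the 9 factors were looked at from lists of the same kind. Of 8 bone genes that RUNX2 drives, 4 were tested, 1 above 0 and 3 below, with a median log2 fold change of −0.07, and the groups overlapped for each. SPP1, the secreted matrix protein osteopontin, had signals of 30855 and 23057 in controls and 28507 and 23226 with rhSTIP1. Its log2 fold change was −0.05 ± 0.19. COL1A1, the main collagen of bone, had 345 and 56.2 in controls and 286 and 146 with rhSTIP1, and TNFRSF11B, the decoy receptor osteoprotegerin, 430 and 779 against 181 and 1046. For both, arrays of 1 group differed by more than the groups did.

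Of 9 genes tied to GATA3 or TBX3, 6 were tested, 4 above 0 and 2 below, with a median of 0.07. CDKN1A, a cell cycle inhibitor that T-box repressors silence, was higher in both treated arrays, at 372 and 474 against 292 and 301, with 0.48 ± 0.26 (limma, unadjusted p = 0.108, adjusted p = 0.999). CDH1, the epithelial cadherin, had 299 and 1355 in controls and 521 and 2109.8 with rhSTIP1, so array 2 exceeded array 1 in both groups. AGR2, a secretory pathway protein of epithelia, had 416 and 49.3 in controls and 154 and 59.2 with rhSTIP1, with array 1 the higher in both groups.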
